A study of Ciona robusta with 16 samples.

Results

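The ubiquitin-proteasome system of *Ciona robusta* was followed at the mRNA level over 8 stages of development through 59 genes. These are all genes of the KY21 gene set whose human match, in the supplementary tables of the study, has a symbol that starts with UBE, USP, RNF, TRIM, FBX, CUL with a digit, ANAPC or PSM. They are 59 of the 18424 genes in the deposited table, and of 2548 genes with a human match in those tables. The tables were held in part and their entries lie on few chromosomes (7 for the members), so genes of the pathway outside them are not covered. The 59 genes carry 58 symbols, since RNF213 was matched by 2 genes. By the known role of the human protein, 3 are ubiquitin or ubiquitin-like conjugating enzymes, 25 are ligases or ligase subunits, 10 belong to the ubiquitin-specific protease family and 19 are proteasome subunits, assembly factors or activators. USP39 was kept with the deubiquitinases by family, although it is a spliceosome protein that lacks the catalytic residues. The other 2, PSMC3IP and PSME3IP1, carry a proteasome prefix but are no part of the particle. Roles given below are those of the mammalian proteins. All 59 genes had enough counts to be tested.

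The RNA came from whole wild-type animals, pooled at about 150 embryos per sample, with 2 replicates in each of 8 stages and 16 libraries in all. Dechorionated eggs of hermaphrodite adults were fertilized in vitro and the embryos grew at about 18 °C. Sampling began with eggs before fertilization (unfE, 0 h) and soon after it (fertE, 0.4 h), went on to embryos of 16 cells (cell16, 2.65 h), the start of gastrulation (iniG, 4.5 h) and the end of neurulation (latN, 7.4 h), and closed with middle (midTII, 10.9 h) and late (latTII, 13.5 h) tailbud II embryos and larvae (17.5 h). At each stage 1 replicate shared its fertilization batch with the proteomics and the other came from an independent time course, and which number is which is not given in the sources used here.

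Ubiquitin is a small protein that cells attach to other proteins through a relay of an activating enzyme, a conjugating enzyme and a ligase, of which the ligase picks the target. Chains of ubiquitin can send a protein to the proteasome, a barrel-shaped core particle of alpha and beta subunits (20S) capped by a regulatory particle (19S) that unfolds the substrate, while deubiquitinases trim or remove the chains. Eggs store maternal mRNA and protein for these enzymes, and regulated proteolysis is known for driving cell division and the clearance of maternal proteins in early animal embryos.

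The libraries held 23.1 to 33.4 M counts, and replicates of a stage differed by far more than sampling noise (chi-square per gene 37.3 to 110.8). As a check of the labels, the summed level of 10 larval muscle genes was 29.8 to 36.3 TPM (a level scaled for transcript length and library size) from unfE to cell16 and 4530 to 6213 TPM from midTII to larva. All 10 of them were highest in 1 of the 3 last stages. Among them, TPM1 reached a mean of only 0.69 TPM, and CKM differed little between unfE (8.94 TPM) and larva (11.3 TPM). Both thus add little to the check. A set of 36 rows with Ensembl identifiers took 18.3% to 27.4% of each library's TPM and was left in place.

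Most members were abundant in the egg and lower after neurulation. The 59 mRNAs together made up 0.509% and 0.551% of all TPM in the unfE libraries, 0.543% and 0.578% in fertE, 0.508% and 0.519% in cell16 and 0.563% and 0.540% in iniG. Their share was 0.358% and 0.382% in latN, 0.195% and 0.223% in midTII, 0.199% in both latTII libraries, and 0.260% and 0.243% in larva. The 8 libraries up to iniG thus all stood above the 2 of latN, and those above the 6 later ones. The higher share in larva than in latTII rests largely on 1 gene, FBXL7, with means of 64.2 TPM in latTII and 569 TPM in larva. As these are bulk samples, fewer cells that use a gene and less mRNA per cell cannot be told apart. The highest stage mean lay between unfE and cell16 for 34 members (57.6%) and in iniG or latN for 24 (40.7%). For 1 member, the F-box gene FBXL7, it lay from midTII on. In the same order, the shares were 33.3%, 32.3% and 34.3% of all 13864 genes that reached 2 TPM in a stage. Among the genes with a human match in the tables they were 41.6%, 40.5% and 17.9%. Expression was otherwise broad, and 56 members (94.9%) had a mean of at least 2 TPM in every stage. This held for 91.1% of the genes with a human match and 60.1% of all genes that reached 2 TPM.

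**Figure D1:**
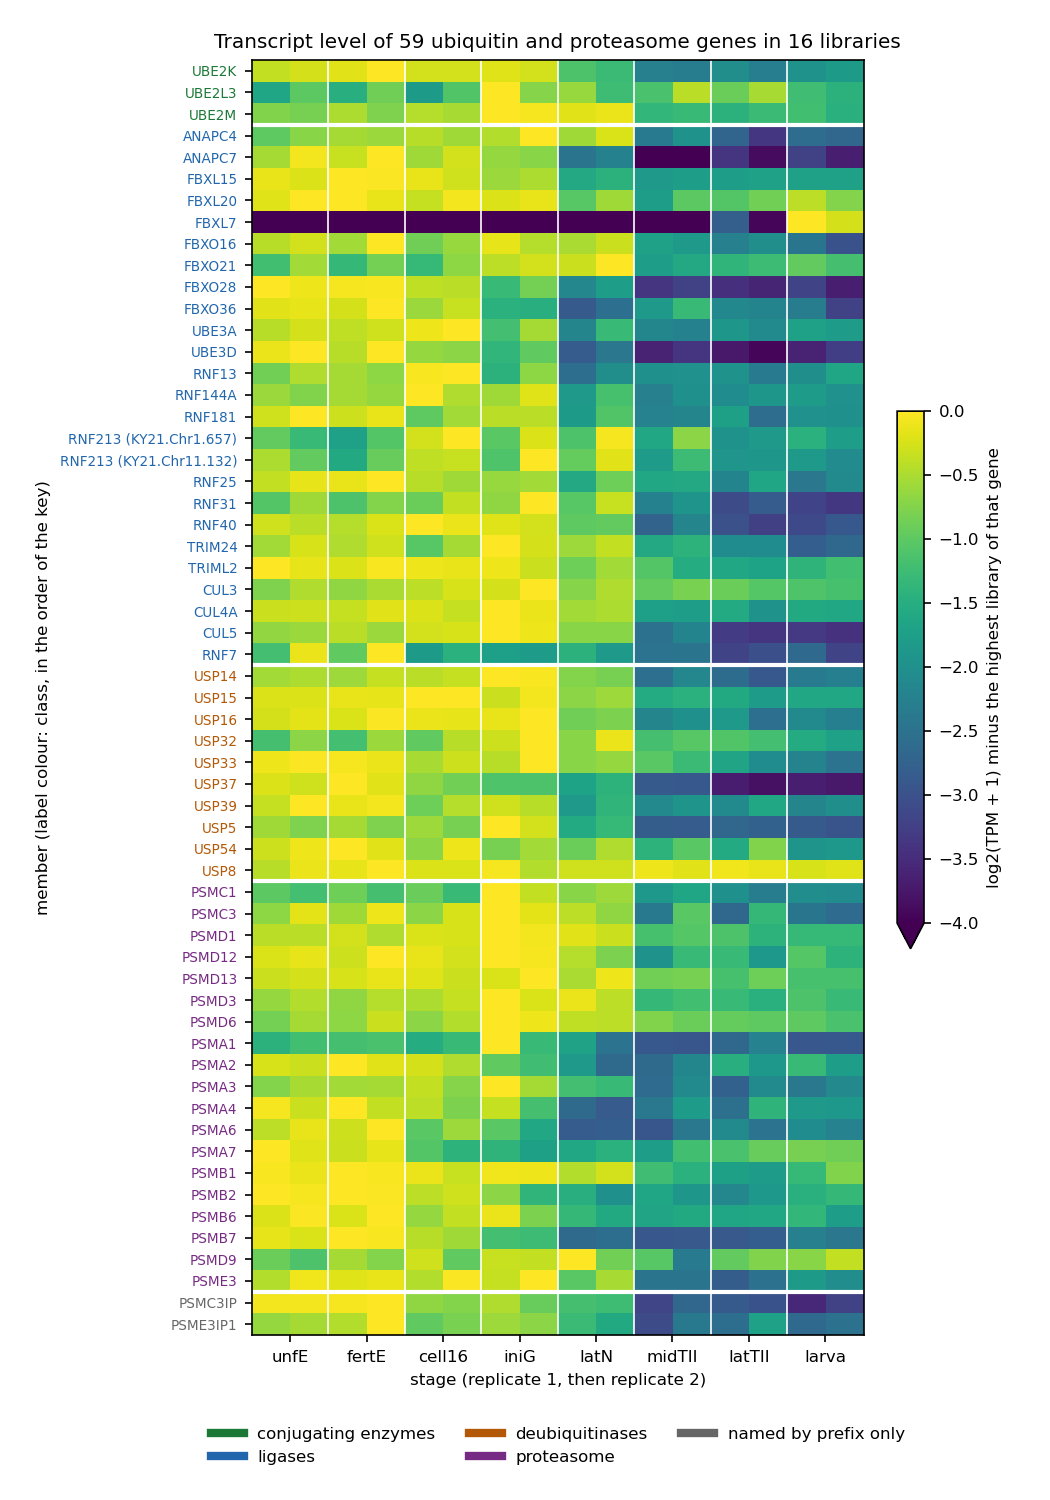
Level of the 59 genes (rows, grouped by class) in the 16 libraries (columns, 2 per stage), as log2(TPM + 1) minus the highest library of the same gene, so yellow is the highest library and dark blue is 4 log2 units or more below it. Most rows are bright up to iniG and dark from midTII on, the row of FBXL7 shows the opposite order, and USP8 stays bright in all 16 libraries.

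Across the 8 stages, 55 of the 59 members differed in edgeR's quasi-likelihood test at an adjusted p under 0.05, against 83.1% of all 14643 genes tested and 90.1% of the tested genes with a human match. The 4 that were not called were CUL3 (adjusted p = 0.14), PSMD13 (0.45), PSMD6 (0.11) and PSMD9 (0.57), all edgeR values. From unfE to larva, 39 members were called lower and 2 higher, namely FBXL7 and the endosomal deubiquitinase USP8. The background for these counts was 33% of all genes called lower and 38.3% called higher, and 53.5% and 23% of the genes with a human match. The median log2 fold change was -1.02 over the members, 0.26 over all genes tested and -0.72 over the genes with a human match. In TPM, both unfE libraries lay above both larva libraries for 54 members, below them for 2, and overlapped with them for 3. No share of all genes was computed for this count. The median of all genes itself changed by -0.42 in limma on log2(TPM + 1), so a general shift in TPM may contribute. The 41 calls in either direction compare with 71.3% of all genes and 76.5% of those with a human match. Of these calls, 31 held with each library left out in turn, and the others were USP8, TRIML2, RNF7, RNF144A, PSMA1, PSMA4, PSMB2, PSMB6, PSME3IP1 and the RNF213 match on chromosome 11. Without unfE replicate 1, USP8 was no longer called (edgeR adjusted p = 0.061), which leaves 1 member higher.

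The size and for some genes the direction of these changes depended on how the libraries were scaled. With the TMM factors used here the median gene changed by 0.26 on the log2 scale from unfE to larva, against 0.64 with RLE factors, 0.67 in DESeq2, -0.28 with library totals and -0.42 in limma on log2(TPM + 1). Members called higher and lower numbered 2 and 39 with TMM, 9 and 30 with RLE, 9 and 31 in DESeq2, 1 and 51 with library totals, and 1 and 52 in limma on TPM. The members' median relative to the median of all genes was -1.29 with TMM and ranged from -1.41 to -0.96 over all 27 fits, those with a library left out included. Over the 11 fits with all replicates, 42 members were below 0 in every fit and 49 were below the median gene in every fit. No share of all genes is given for these counts. With TMM, the genes with a human match themselves had a median of -0.98 relative to the median gene. Calls held in all 11 fits for 30 members that were lower and for FBXL7, again without a share of all genes. Of the other 10, the RNF213 match on chromosome 11 was called in 10 fits, CUL4A, UBE3A, TRIML2, PSMA1, PSMA4, PSMB2 and PSMB6 in 9, RNF144A in 8 and USP8 in 7. The sign differed between the 11 fits for 14 members, none of them called with TMM. Fold changes from unfE to larva are therefore given as fitted and also relative to the median gene.

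**Figure D2:**
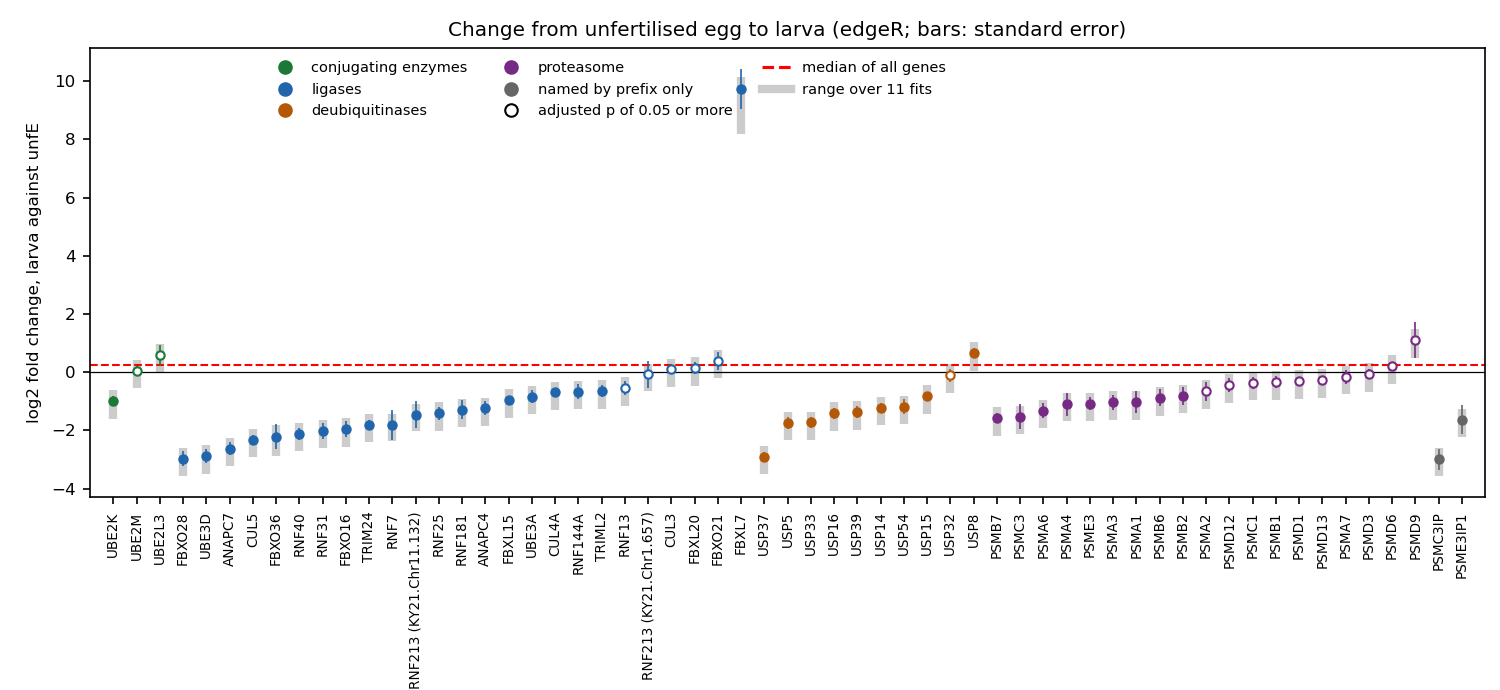
Fitted log2 fold change from unfE to larva for each member (points, edgeR; bars, standard error; open points, adjusted p of 0.05 or more), with the range over 11 fits in grey and the median of all genes at 0.26 as a dashed line. Of the 59 points 39 are filled and below 0, FBXL7 stands alone at 9.74, and the grey bars cross 0 for 5 of the 7 genes of the 19S particle.

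Ligases, deubiquitinases and proteasome genes had class medians close to one another up to midTII, and the proteasome median stood above the other 2 in larva. The median member stood at 102% of its unfE level in iniG for the deubiquitinases, 95.1% for the ligases, 112% for the proteasome genes and 170% for the 3 conjugating enzymes. In latN the medians were 68.4%, 64.3%, 71.2% and 132%, and in midTII 34.4%, 36.4%, 37.6% and 68.6%. In larva they were 26.9%, 26.7%, 41.8% and 68.4% of unfE in the same order. The median fitted log2 change from unfE to larva was -1.29 for the deubiquitinases, -1.29 for the ligases, -0.66 for the proteasome and 0.05 for the conjugating enzymes. Relative to the median gene, these are -1.55, -1.55, -0.92 and -0.21. Members called lower were 8 of 10 deubiquitinases, 19 of 25 ligases, 9 of 19 proteasome genes and 1 of 3 conjugating enzymes, and 8, 14, 5 and 1 of them were called lower in all 11 fits. No share of all genes was computed for the counts over 11 fits. Of the genes with a human match 53.5% were called lower, with a median of -0.72 (-0.98 relative to the median gene). The proteasome median thus lay no lower than that of the genes with a human match. Without USP39, 7 of 9 deubiquitinases were called lower, with a median of -1.21 (-1.47 relative to the median gene). Over the 27 fits the relative median ranged from -1.67 to -1.22 for the deubiquitinases, -1.65 to -1.22 for the ligases, -1.18 to -0.59 for the proteasome and -0.45 to 0.12 for the conjugating enzymes. No test of the difference between classes was made, as the genes of a class are not replicates of it.

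**Figure D3:**
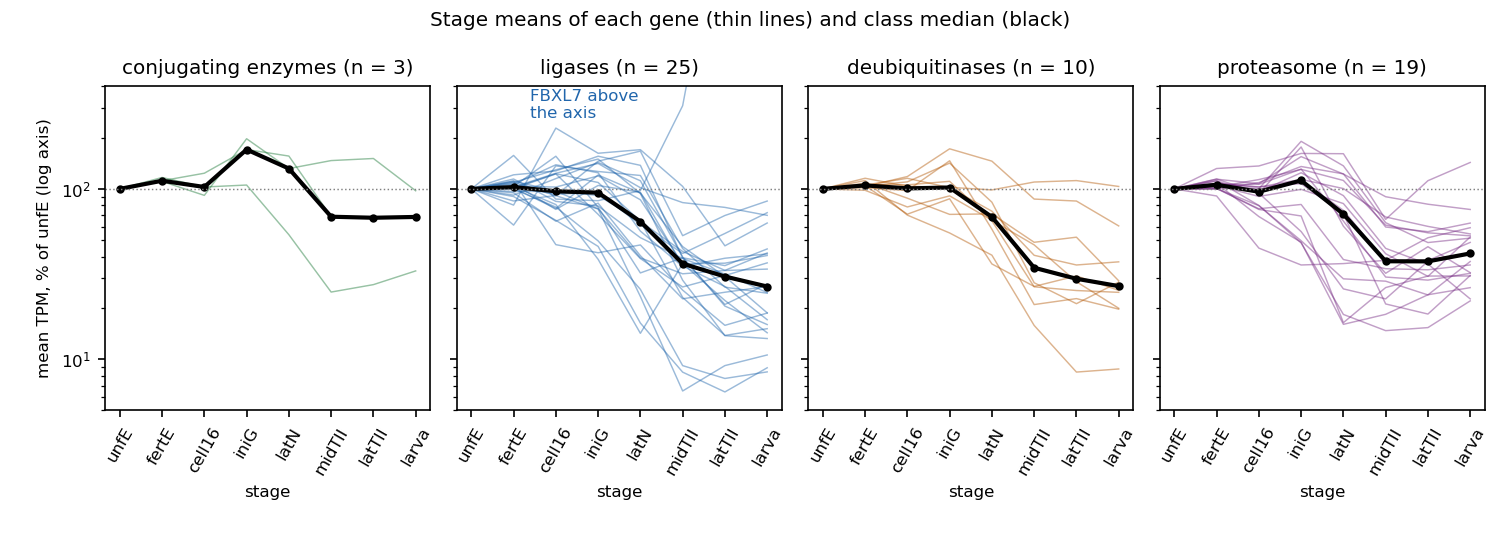
Mean TPM of each member as a percent of its unfE mean (log axis; thin lines, genes; black, class median) over the 8 stages, in a panel per class. The class medians lie near 100% up to cell16, and in larva at 26.7% for the ligases, 26.9% for the deubiquitinases, 41.8% for the proteasome and 68.4% for the conjugating enzymes. The line of FBXL7 leaves the ligase panel at the top.

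The 3 conjugating enzymes did not share a profile. UBE2K (KY21.Chr14.768), which builds lysine-48-linked chains, had TPM values of 142 and 154 in unfE, 162 and 183 in fertE, 152 and 152 in cell16, 159 and 152 in iniG, 83.97 and 75.3 in latN, 37.4 and 35.9 in midTII, 44.5 and 36.5 in latTII and 46.6 and 51.0 in larva (replicates 1 and 2 in each stage, here and below). All values up to iniG exceeded all later ones. It was lower in larva than in unfE (edgeR log2 -0.99 ± 0.18 (SE), adjusted p = 0.00022; -1.25 relative to the median gene), with called falls from iniG to latN (-0.76) and from latN to midTII (-0.65). The latN to midTII call was lost without latN replicate 1 or midTII replicate 2.

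UBE2M (KY21.Chr1.1761), which passes the ubiquitin-like protein NEDD8 to cullins, had TPM values of 118 and 114 in unfE, 142 and 117 in fertE, 147 and 139.8 in cell16, 201 and 194 in iniG, 177 and 185 in latN, 77.9 and 81.3 in midTII, 74.3 and 82.7 in latTII and 86.0 and 72.8 in larva. Its 2 highest stages were thus iniG and latN, and the 6 libraries from midTII on lay below all others. The fall from latN to midTII was called (edgeR log2 -0.71 ± 0.16 (SE), adjusted p = 0.0047). Between unfE and larva it was not called (0.05 ± 0.16 (SE), adjusted p = 0.78), and the outcome turned with the scaling. It was called higher in DESeq2 (0.43, adjusted p = 0.023) and with RLE factors (0.43), and lower with library totals (-0.52) and in the 3 limma fits on TPM (-0.55). Its fitted value was -0.06 without unfE replicate 2 and -0.05 without larva replicate 1.

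UBE2L3 (KY21.Chr10.617), which works with HECT and RBR ligases, had TPM values of 41.1 and 64.1 in unfE, 45.9 and 70.5 in fertE, 36.0 and 60.4 in cell16, 129 and 78.0 in iniG, 84.3 and 54.3 in latN, 57.5 and 96.8 in midTII, 69.0 and 89.8 in latTII and 55.0 and 47.6 in larva. Its replicates differed widely in most stages and the stages overlapped. The test over all stages was passed (edgeR adjusted p = 0.021), while the change from unfE to larva was not called (log2 0.58 ± 0.36 (SE), adjusted p = 0.16) and was 0 in limma on log2(TPM + 1). It was called higher in 3 of the 11 fits, namely DESeq2 (0.96, adjusted p = 0.02), RLE factors (0.96) and only the unfE and larva libraries (0.66).

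Of the ligases, the 4 cullin-RING genes included the one with the highest mean TPM in each stage from cell16 to latTII, CUL3. CUL3 (KY21.Chr1.1470), the scaffold of ligases with BTB-domain adaptors, had the smallest fitted change from unfE to larva among the ligases with a mean of at least 10 TPM, with TPM values of 136 and 165 in unfE, 145 and 163 in fertE, 176 and 196 in cell16, 193 and 232 in iniG, 139 and 167 in latN, 118 and 132 in midTII, 124 and 110.4 in latTII and 108 and 103 in larva. The mean was highest in iniG, and the larva libraries were the lowest. It was not called from unfE to larva (edgeR log2 0.10 ± 0.13 (SE), adjusted p = 0.53), and the outcome turned with the scaling. It was called higher in DESeq2 (0.47, adjusted p = 0.00022) and with RLE factors (0.47), and lower with library totals (-0.48) and in the 3 limma fits on TPM (-0.51). The other 3 were called lower in larva by edgeR. CUL5, the scaffold for SOCS-box proteins, changed by -2.31 (-2.58 relative to the median gene, adjusted p = 4.6e-08) and fell in 3 successive steps from iniG to latTII, the first of them lost in 6 of the 16 fits with a library left out. RNF7, a RING subunit of cullin ligases, changed by -1.80 (adjusted p = 0.0071), and CUL4A, the scaffold that binds DDB1, by -0.70 (adjusted p = 0.0015). The CUL4A call was made in 9 of 11 fits, with values from -1.30 to -0.32. RNF7 rested on unequal egg libraries (TPM of 37.6 and 80.0 in unfE and 43.6 and 87.0 in fertE), and its call was lost without unfE replicate 2 (adjusted p = 0.082) or larva replicate 2 (0.063).

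The F-box genes, substrate adaptors of cullin ligases, held the largest rise and the largest fall among the ligases. FBXL7 (KY21.Chr1.1449) had TPM values of 0.629 and 1.39 in unfE, 0.569 and 2.61 in fertE, 0.548 and 1.21 in cell16, 0.731 and 0.991 in iniG, 1.16 and 0.818 in latN, 3.63 and 2.60 in midTII, 88.9 and 39.5 in latTII and 620.1 and 518 in larva. The 10 libraries up to latN all lay at or below 2.61 TPM, each later stage lay above the one before it without overlap, and the lowest count in any library was 6.3. In larva it was the most abundant of the 59 mRNAs, at 569 ± 72.4 TPM (mean ± SD, n = 2). The rise from unfE to larva was 9.74 ± 0.69 (SE), adjusted p = 9.1e-08 on edgeR's log2 scale (9.48 relative to the median gene), and the fitted value ranged from 8.17 to 10.13 over 11 fits. By step it rose by 2.08 from latN to midTII (edgeR adjusted p = 0.026), 4.42 from midTII to latTII (0.00036) and 3.18 from latTII to larva (0.0019). The first of these calls was made in 6 of 11 fits and lost without latN replicate 1 (0.076), latN replicate 2 (0.16) or midTII replicate 1 (0.12), and the other 2 held in all 11 fits and with each library left out.

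**Figure D4:**
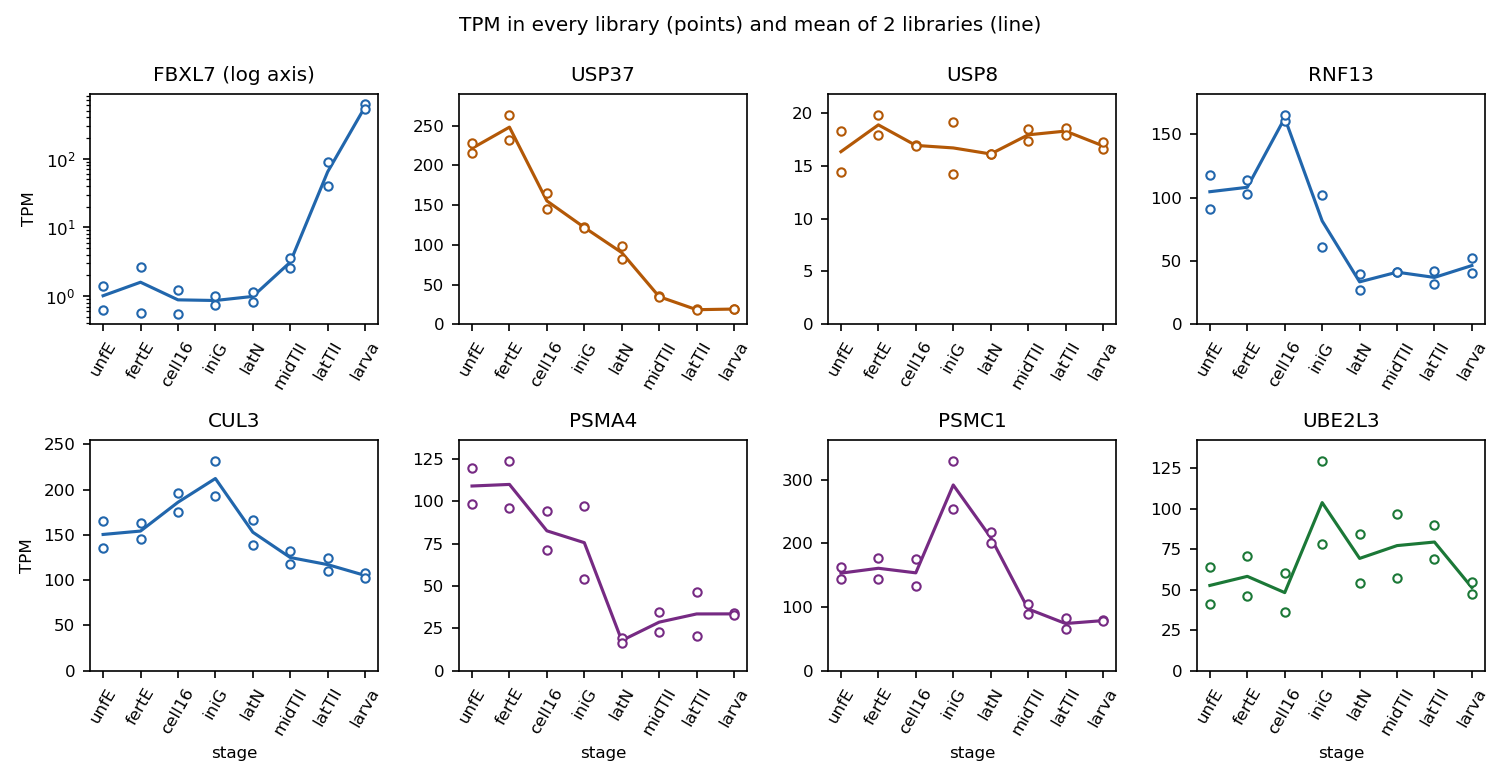
TPM in every library (open points) and the mean of 2 libraries (line) for 8 members over the 8 stages; the axis of FBXL7 is logarithmic and the others start at 0. FBXL7 goes from about 1 TPM up to latN to 620.1 and 518 in larva, USP37 is lower in each stage from fertE to latTII, USP8 lies between 14.2 and 19.8 TPM, and PSMC1 peaks in iniG.

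FBXO28 (KY21.Chr11.944) showed the reverse, with TPM values of 69.7 and 65.0 in unfE, 67.1 and 67.9 in fertE, 53.3 and 52.0 in cell16, 28.1 and 38.6 in iniG, 14.9 and 19.7 in latN, 5.81 and 6.53 in midTII, 5.51 and 4.87 in latTII and 6.79 and 4.55 in larva. All libraries from midTII on lay at or below 6.79 TPM, and the stages before and after iniG did not overlap. From unfE to larva its edgeR log2 change was -2.97 ± 0.26 (SE), adjusted p = 3.5e-07 (-3.23 relative to the median gene), and 3 successive steps from cell16 to midTII were called, with the calls lost in 7, 3 and 1 of the 16 fits with a library left out. Among the other 5 F-box genes, FBXO36 (-2.21), FBXO16 (-1.95) and FBXL15 (-0.96) were called lower in larva, and FBXL20 (0.14) and FBXO21 (0.38) were not called and turned sign with library totals or TPM. FBXO36 was lowest in latN (3.23 and 4.29 TPM), with 10.4 and 10.1 before it and 7.63 and 11.7 after it, and its rise from latN to midTII was called in all 11 fits (edgeR log2 1.81 ± 0.44 (SE), adjusted p = 0.0064). It was lost without latN replicate 1 (0.055) or midTII replicate 2 (0.053).

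Both subunits of the anaphase-promoting complex, the ligase that ends mitosis, were lower in the tailbud stages. ANAPC7 (KY21.Chr2.28) had TPM values of 98.9 and 136 in unfE, 114 and 144 in fertE, 96.1 and 119 in cell16, 92.0 and 87.4 in iniG, 25.4 and 29.6 in latN, 7.84 and 7.46 in midTII, 12.7 and 8.87 in latTII and 14.5 and 10.4 in larva. The called steps lay between iniG and midTII, with no overlap between the 8 libraries up to iniG and the 8 after it. The edgeR log2 change from unfE to larva was -2.63 ± 0.23 (SE), adjusted p = 4.1e-07 (-2.89 relative to the median gene), and the steps from iniG to latN (-1.50) and latN to midTII (-1.37) were called in all 11 fits. ANAPC4 still had 59.6 and 76.3 TPM in latN and fell from latN to midTII (16.8 and 22.1 TPM; edgeR log2 -1.33 ± 0.24 (SE), adjusted p = 0.00092).

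Of the HECT-type ligases, UBE3D (KY21.Chr12.510) had TPM values of 104 and 112 in unfE, 83.1 and 112 in fertE, 72.2 and 69.1 in cell16, 42.9 and 56.4 in iniG, 14.9 and 20.3 in latN, 8.29 and 9.82 in midTII, 7.50 and 6.36 in latTII and 8.34 and 10.9 in larva. Every library from latN on was below every earlier one. Its edgeR log2 change from unfE to larva was -2.88 ± 0.23 (SE), adjusted p = 1.4e-07 (-3.14 relative to the median gene), and the step from iniG to latN was called (-1.29). UBE3A, the HECT ligase lost in Angelman syndrome in humans, was highest in cell16 (97.9 and 106 TPM) and fell to 45.7 and 72.1 (edgeR log2 -0.91 ± 0.24 (SE), adjusted p = 0.017). That call was lost without cell16 replicate 1 (0.071), cell16 replicate 2 (0.065) or iniG replicate 1 (0.17).

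Among the 10 RING and TRIM genes, 8 were called lower in larva than in unfE and none higher, against 33% of all genes and 53.5% of those with a human match called lower, with log2 changes from -2.12 (RNF40, a ligase of histone H2B) to -0.65 (TRIML2, a TRIM-like protein). RNF13 (KY21.Chr1.1802), a membrane-bound ligase, was highest in the 16-cell embryo, with TPM values of 91.3 and 118 in unfE, 114 and 103 in fertE, 160.2 and 165 in cell16, 60.9 and 102 in iniG, 27.3 and 39.9 in latN, 41.0 and 41.4 in midTII, 42.2 and 32.0 in latTII and 40.6 and 52.4 in larva. Both cell16 libraries lay above all others. It fell from cell16 to iniG (edgeR log2 -1.11 ± 0.24 (SE), adjusted p = 0.006), the largest called change of any member in that step, and from iniG to latN (-1.08), and rose from latN to midTII (0.78, adjusted p = 0.025). The first call was lost without iniG replicate 1 (0.071), the second without iniG replicate 2 (0.065) or latN replicate 1 (0.061), and the third, made in 7 of 11 fits, without latN replicate 1 (0.19), midTII replicate 1 (0.10) or midTII replicate 2 (0.073). Between unfE and larva RNF13 was not called (-0.55 ± 0.24 (SE), adjusted p = 0.053), but was called lower in 6 of the 11 fits.

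RNF31, the catalytic subunit of the complex that makes linear chains, was called lower in larva by -2.03 and TRIM24, which reads chromatin marks, by -1.80. TRIM24 was called higher from cell16 to iniG (edgeR log2 0.55 ± 0.17 (SE), adjusted p = 0.037) and lower from latN to midTII and from latTII to larva, calls that were lost in 9, 3 and 4 of the 16 fits with a library left out. The 2 matches of RNF213, a large ATPase with a RING domain, were the only members that stayed at or below 8.48 TPM in every library. The match on chromosome 1 (KY21.Chr1.657) had TPM values of 3.86 and 2.88 in unfE, 1.91 and 3.51 in fertE, 6.87 and 8.48 in cell16, 3.69 and 7.23 in iniG, 3.37 and 8.09 in latN, 2.12 and 4.85 in midTII, 1.46 and 1.66 in latTII and 2.49 and 1.76 in larva, and the match on chromosome 11 (KY21.Chr11.132) had TPM values of 3.88 and 2.52 in unfE, 1.32 and 2.60 in fertE, 4.26 and 4.46 in cell16, 2.22 and 5.88 in iniG, 2.57 and 5.10 in latN, 0.982 and 1.87 in midTII, 0.820 and 0.874 in latTII and 0.924 and 0.636 in larva. Many stages overlapped for both genes, with replicate 2 above replicate 1 in each stage from fertE to latTII. For KY21.Chr11.132, however, the latTII and larva libraries (0.636 to 0.924 TPM) lay below all earlier ones (0.982 TPM or more). The RNF213 (KY21.Chr11.132) gene was called lower in larva (edgeR log2 -1.45 ± 0.48 (SE), adjusted p = 0.016), a call lost without unfE replicate 1 (0.13) or larva replicate 2 (0.10) and made in 10 of 11 fits. For RNF213 (KY21.Chr1.657) the change was -0.08 ± 0.45 (SE), adjusted p = 0.89, and it was 0.30 with RLE factors. Reads shared between the 2 genes would make their split uncertain.

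Of the 10 genes of the deubiquitinase family, 8 were called lower in larva than in unfE in each of the 11 fits, USP39 among them. In edgeR with TMM alone, 33% of all genes and 53.5% of those with a human match were called lower. No such share was computed over the 11 fits. USP37 (KY21.Chr1.2171), which acts in the cell cycle, was the most abundant member in unfE and fertE, with TPM values of 228 and 215 in unfE, 264 and 232 in fertE, 165 and 145 in cell16, 123 and 121 in iniG, 82.1 and 98.6 in latN, 35.3 and 34.6 in midTII, 19.4 and 17.7 in latTII and 19.9 and 18.9 in larva. The stages from fertE to latTII lay in descending order without overlap. It was called lower in 4 of the 7 steps, namely fertE to cell16 (edgeR log2 -0.66 ± 0.15 (SE), adjusted p = 0.04), cell16 to iniG (-0.46, adjusted p = 0.048), latN to midTII (-0.90) and midTII to latTII (-0.86). The first 2 of these were called in 8 and 3 of the 11 fits and were lost in 12 and 13 of the 16 fits with a library left out. From unfE to larva the log2 change was -2.91 ± 0.16 (SE), adjusted p = 6.1e-09 (-3.17 relative to the median gene).

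USP5 (KY21.Chr1.2079), which takes apart free ubiquitin chains, had TPM values of 55.3 and 48.3 in unfE, 57.0 and 48.3 in fertE, 55.0 and 46.3 in cell16, 82.95 and 68.6 in iniG, 27.6 and 32.4 in latN, 10.9 and 10.8 in midTII, 12.1 and 11.4 in latTII and 10.5 and 9.83 in larva. It was highest in iniG and every library from midTII on was at or below 12.1 TPM. The edgeR log2 change from unfE to larva was -1.75 ± 0.20 (SE), adjusted p = 5.6e-06 (-2.01 relative to the median gene). USP33 (KY21.Chr13.212) had TPM values of 105 and 112 in unfE, 109 and 104 in fertE, 78.7 and 91.0 in cell16, 83.9 and 113 in iniG, 68.9 and 72.9 in latN, 55.2 and 46.4 in midTII, 35.1 and 26.6 in latTII and 23.5 and 19.6 in larva. Its low values came later than those of USP5, and of its steps only midTII to latTII was called (edgeR log2 -0.67 ± 0.18 (SE), adjusted p = 0.038), a call lost in 8 of the 16 fits with a library left out. Over the whole course USP33 changed by -1.72 ± 0.19 (SE), adjusted p = 3.1e-06 (-1.99 relative to the median gene).

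USP16 (KY21.Chr12.203), which acts on histone H2A, had TPM values of 106 and 114 in unfE, 109 and 125 in fertE, 118 and 116 in cell16, 117 and 128 in iniG, 69.7 and 73.5 in latN, 27.2 and 31.4 in midTII, 34.6 and 21.2 in latTII and 28.8 and 25.6 in larva. All 8 libraries up to iniG lay at or above 106 TPM and all others at or below 73.5. From unfE to larva its edgeR log2 change was -1.41 ± 0.20 (SE), adjusted p = 2.7e-05 (-1.67 relative to the median gene). USP14, which sits on the proteasome, had its highest stage in iniG (232 and 226 TPM) and fell to 139 and 131 in the next stage (edgeR log2 -0.55) and to 39.1 and 51.6 after it (-1.11). The first of these calls was lost without iniG replicate 1 (0.088) or latN replicate 2 (0.11).

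USP32 and USP8 were the deubiquitinases not called lower. USP32 (KY21.Chr10.583) had TPM values of 42.0 and 59.5 in unfE, 41.5 and 63.4 in fertE, 48.4 and 71.6 in cell16, 78.1 and 96.5 in iniG, 58.8 and 88.9 in latN, 41.9 and 46.5 in midTII, 44.7 and 41.4 in latTII and 32.7 and 28.8 in larva, with replicate 2 above replicate 1 up to midTII. From unfE to larva it changed by -0.11 ± 0.23 (SE), adjusted p = 0.69 in edgeR, with the opposite sign under RLE factors (0.27), in DESeq2 (0.27) and without unfE replicate 2 (0.07), and it was called lower in 4 of the 11 fits, those on library totals or TPM. USP8 had the most even TPM of all members, with a ratio of 1.17 between the highest and lowest stage means and single libraries from 14.2 to 19.8. Its called rise (edgeR log2 0.66 ± 0.18 (SE), adjusted p = 0.0061; 0.40 relative to the median gene) comes with TPM means that hardly differ, and it was made in 7 of 11 fits.

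The core and the regulatory particle of the proteasome took different courses. The 10 genes of the 20S core summed to 953 ± 1.55 TPM in unfE (mean ± SD, n = 2), 1009 ± 5.52 in fertE and 787 ± 47.0 in cell16. They stood at 753 ± 193 TPM in iniG, where the libraries lay far apart, and at 378 ± 23.5 in latN. Later sums were 265 ± 28.9 in midTII, 291 ± 31.7 in latTII and 345 ± 6.61 in larva. The 7 genes of the 19S particle summed to 1029 ± 78.1 TPM in unfE, 1086 ± 77.9 in fertE and 1062 ± 23.3 in cell16. In iniG they reached 1407 ± 87.8 TPM and in latN 1116 ± 17.6, before 623 ± 83.5 in midTII, 544 ± 23.6 in latTII and 517 ± 26.0 in larva. The core sum was thus well below its egg level in latN, when both 19S libraries still lay above those of unfE.

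The ratio of the 20S sum to the 19S sum does not depend on the scaling of libraries. It was 0.98 and 0.88 in unfE, 0.98 and 0.88 in fertE, 0.78 and 0.70 in cell16, 0.61 and 0.46 in iniG, 0.35 and 0.33 in latN, 0.43 and 0.42 in midTII, 0.51 and 0.56 in latTII and 0.64 and 0.70 in larva. Libraries of successive stages did not overlap from fertE on, each lower than the one before up to latN and higher after it. With any 1 of the 17 subunits left out, the latN libraries stayed below those of unfE, and the mean ratio ranged from 0.77 to 1.17 in unfE, 0.24 to 0.42 in latN and 0.53 to 0.85 in larva. No test of the ratio was made.

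**Figure D5:**
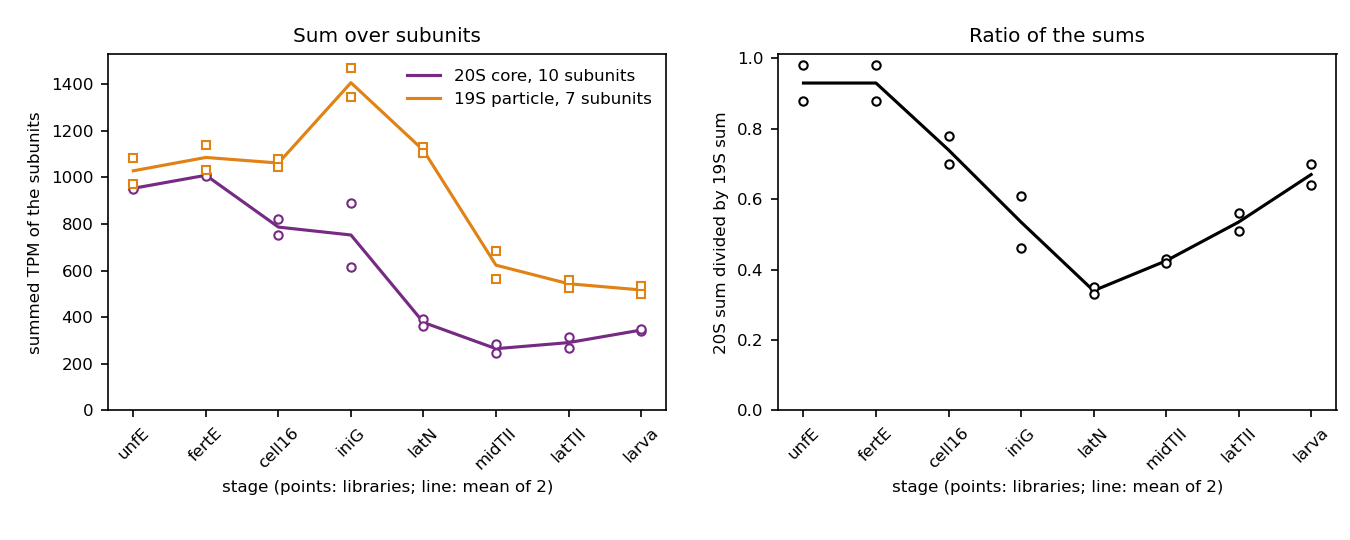
Left, summed TPM of the 10 core (20S) and 7 regulatory particle (19S) genes in each library (open points) with the mean of 2 (line); right, the ratio of the 2 sums. The core sum is 753 TPM in iniG and 378 TPM in latN, where the 19S sum is still 1116 TPM, and the ratio is 0.93 in unfE, 0.34 in latN and 0.67 in larva.

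Gene by gene, 7 of the 10 core genes were called lower from iniG to latN (PSMA1, PSMA2, PSMA3, PSMA4, PSMA6, PSMB6 and PSMB7) and none of the 7 regulatory genes. In that step 14.2% of all genes and 25% of those with a human match were called lower. For the 19S genes the count was also 0 at an unadjusted p under 0.05 in edgeR, and 0 in DESeq2, limma and each of the other fits. For the core the count was between 3 and 8 over the 11 fits, with 4 under RLE factors and 3 when only the libraries compared were used, and it was 3 without iniG replicate 1 and 3 without latN replicate 2. From latN to midTII PSMC1 (-0.64) and PSMD3 (-0.57) of the regulatory particle were called lower by edgeR, no core gene was called lower, and PSMA4 was called higher, against 16.8% of all genes and 28.6% of those with a human match called lower. The PSMC1 and PSMD3 calls were lost in 4 and 3 of the 16 fits with a library left out. Whether the 2 particles differ within a single step was not tested.

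Among the core genes, PSMA4 (KY21.Chr12.512), of the alpha ring, had TPM values of 119 and 98.6 in unfE, 124 and 96.1 in fertE, 94.1 and 71.1 in cell16, 97.05 and 54.1 in iniG, 19.4 and 16.3 in latN, 22.7 and 34.7 in midTII, 20.6 and 46.5 in latTII and 34.0 and 33.2 in larva. The latN libraries were the lowest, and those of iniG and latTII were spread widely. Its fall from iniG to latN was the largest called change of any member in that step (edgeR log2 -1.88 ± 0.40 (SE), adjusted p = 0.0033) and its rise from latN to midTII (1.14 ± 0.40 (SE), adjusted p = 0.041) was called in 7 of 11 fits and lost without any 1 of the 6 libraries of latN, midTII and larva. PSMA4 changed between unfE and larva by -1.10 ± 0.39 (SE), adjusted p = 0.022, which was lost without unfE replicate 1 (0.12), larva replicate 1 (0.084) or larva replicate 2 (0.079).

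PSMA6 (KY21.Chr2.1378), also of the alpha ring, had TPM values of 86.4 and 104 in unfE, 91.5 and 114 in fertE, 55.4 and 75.6 in cell16, 55.5 and 37.0 in iniG, 15.1 and 15.4 in latN, 14.02 and 20.9 in midTII, 25.9 and 19.6 in latTII and 26.6 and 23.5 in larva. All libraries from latN on were at or below 26.6 TPM. Its edgeR log2 change from unfE to larva was -1.32 ± 0.27 (SE), adjusted p = 0.00068 (-1.58 relative to the median gene). PSMB7 (KY21.Chr1.1000), the catalytic subunit with trypsin-like activity, had TPM values of 163 and 154 in unfE, 179.9 and 175 in fertE, 133 and 121 in cell16, 78.2 and 74.6 in iniG, 28.4 and 29.6 in latN, 23.03 and 23.6 in midTII, 23.6 and 24.9 in latTII and 36.9 and 32.8 in larva. Its stages from fertE to latN lay in descending order without overlap, and it changed by -1.58 ± 0.17 (SE), adjusted p = 2.3e-06 from unfE to larva (-1.85 relative to the median gene), with the steps from cell16 to iniG (-0.84) and iniG to latN (-1.19) called in all 11 fits.

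PSMA7 departed from the other core genes in its profile, and PSMB1 in its latN level and last step. PSMA7 was already low in cell16 (TPM of 66.7 and 75.6 in fertE and 39.5 and 30.8 in cell16) and had 47.2 and 45.4 TPM in larva. Over the 16 libraries its log2(TPM + 1) correlated with the mean of the other 16 subunits at r = 0.40, against 0.61 to 0.96 for each of the others. By this measure PSMB1, at 0.87, did not stand apart. PSMB1 still had 105 and 119 TPM in latN and rose from latTII (43.1 and 40.6) to larva (57.4 and 85.1; edgeR log2 0.81 ± 0.22 (SE), adjusted p = 0.035), a call lost without latTII replicate 1 (0.074), latTII replicate 2 (0.22) or larva replicate 2 (0.39). These are correlations of levels within the same libraries and are given as a description.

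In the regulatory particle, PSMC3 (KY21.Chr2.1423), an ATPase, had TPM values of 176 and 252 in unfE, 189 and 263 in fertE, 173 and 239 in cell16, 282 and 251 in iniG, 213 and 177 in latN, 53.2 and 138 in midTII, 43.9 and 111 in latTII and 50.8 and 45.8 in larva. Its replicates lay far apart in midTII and latTII, and both larva libraries were below both unfE libraries. It was the 1 regulatory gene called lower from unfE to larva (edgeR log2 -1.53 ± 0.42 (SE), adjusted p = 0.0064; -1.79 relative to the median gene). PSMC1, another ATPase, rose from cell16 (175 and 132 TPM) to iniG (329.5 and 254; edgeR log2 0.81 ± 0.21 (SE), adjusted p = 0.018), a call lost without cell16 replicate 2 (0.16) or iniG replicate 1 (0.18). PSMD3 (KY21.Chr1.1979), of the lid, had TPM values of 128 and 144 in unfE, 125 and 145 in fertE, 141 and 156 in cell16, 199 and 170.1 in iniG, 184 and 150.1 in latN, 77.7 and 84.9 in midTII, 81.0 and 71.7 in latTII and 90.6 and 81.0 in larva. Its mean was highest in iniG and lowest in latTII, and its change from unfE to larva of -0.06 ± 0.16 (SE), adjusted p = 0.75 in edgeR had the opposite sign in DESeq2 and with RLE factors (0.32 in both) and was called lower in 4 of the 11 fits, those on library totals or TPM. PSMD13, PSMD6 and PSMD1 were not called either (-0.27, 0.21 and -0.31).

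PSMD9, a chaperone of 19S assembly, and PSME3, the nuclear activator of the core, differed from the rest and from each other. PSMD9 was low, with single libraries from 4.24 to 25.5 TPM, and was not called in any step, and from unfE to larva it was called higher in 2 of the 11 fits. PSME3 fell from latN (60.6 and 86.3 TPM) to midTII (21.7 and 21.9; edgeR log2 -1.28 ± 0.21 (SE), adjusted p = 0.00052) and rose from latTII (16.8 and 21.2) to larva (34.6 and 29.3; 0.79 ± 0.21 (SE), adjusted p = 0.036), the rise being lost without any 1 of the 6 libraries of fertE, latTII and larva. Of the 2 genes named by prefix only, PSMC3IP (KY21.Chr1.1889), a partner in meiotic recombination, had TPM values of 46.9 and 46.8 in unfE, 47.1 and 49.0 in fertE, 30.5 and 28.7 in cell16, 34.9 and 25.1 in iniG, 21.0 and 20.1 in latN, 4.59 and 6.84 in midTII, 5.87 and 5.26 in latTII and 3.31 and 4.39 in larva. It had the largest called fall of all 59, -2.99 ± 0.36 (SE), adjusted p = 8.0e-06 on edgeR's log2 scale (-3.25 relative to the median gene), and its last 6 libraries were all at or below 6.84 TPM. PSME3IP1 (KY21.Chr12.40), which binds PSME3, had TPM values of 17.2 and 18.3 in unfE, 19.5 and 27.1 in fertE, 13.2 and 15.03 in cell16, 17.7 and 16.3 in iniG, 10.6 and 8.42 in latN, 2.33 and 4.41 in midTII, 3.77 and 7.57 in latTII and 3.55 and 3.99 in larva. Its change was -1.63 ± 0.50 (SE), adjusted p = 0.01, lost without larva replicate 1 (0.065), and all libraries from midTII on were below those up to latN.

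By step, most of the members' called changes lay between iniG and midTII. All genes also had their largest shares called there, 29.9% from iniG to latN and 33.7% from latN to midTII in either direction. No member was called from unfE to fertE (0 of 59 in edgeR, also 0 at an unadjusted p under 0.05, and 0 in DESeq2, limma and the other fits), where 0.00683% of all genes were called. From fertE to cell16, 1 member (USP37, lower) was called, against 1.17% of all genes called lower and 2.17% in either direction. From cell16 to iniG, 2 were called higher (TRIM24 and PSMC1) and 6 lower, among them RNF13, UBE3A and PSMB7, against 11.6% and 7.9% of all genes. From iniG to latN, 21 were lower and none higher, against 14.2% and 15.7%. From latN to midTII, 21 were lower and 5 higher (FBXL7, FBXO36, PSMA4, RNF13 and USP8), against 16.8% in each direction. From midTII to latTII, 6 were lower and 1 higher (FBXL7), against 4.48% and 4.58%. From latTII to larva, 3 were higher (FBXL7, PSMB1 and PSME3) and 1 lower (TRIM24), against 3.27% and 5.18%. Among the genes with a human match, 25% were lower from iniG to latN and 28.6% from latN to midTII.

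In either direction the shares of all genes called were 19.5%, 29.9%, 33.7%, 9.06% and 8.45% in these last 5 steps. Several of the members' counts moved with single libraries. From iniG to latN the 21 calls became 13 without either iniG library and 12 without latN replicate 1. From latN to midTII the 26 calls became 17 without latN replicate 1, 16 without latN replicate 2, 15 without midTII replicate 1 and 17 without midTII replicate 2. From cell16 to iniG the 8 calls became 3 without either cell16 library and 2 without iniG replicate 1, 4 without either fertE library, and 5 without either library of unfE or midTII. From midTII to latTII the 7 calls became 3 without midTII replicate 2 or latTII replicate 2, and 4 without either library of unfE, fertE or larva or without midTII replicate 1. From latTII to larva the 4 calls became 1 without latTII replicate 2 or larva replicate 2 and 2 without larva replicate 1. The single call from fertE to cell16 was lost in 12 of the 16 fits.

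The rest of the pathway was read from 60 genes of 58 other symbols in the same tables, chosen by their known role (activating enzymes, other ligases and adaptors, other deubiquitinases, the COP9 signalosome and shuttle factors). In larva against unfE 37 of them were called lower and 9 higher by edgeR, with a median log2 change of -1.07, against 33% lower and 38.3% higher among all genes and 53.5% and 23% among those with a human match. The activating enzyme UBA1 had TPM values of 122 and 167 in unfE and 117 and 124 in larva and was not called (edgeR log2 0.36 ± 0.17 (SE), adjusted p = 0.074). UBA3, the other activating-enzyme gene listed, was called lower (TPM of 47.3 and 54.3 in unfE and 9.35 and 10.4 in larva, edgeR log2 -1.75 ± 0.20 (SE), adjusted p = 4.6e-06). The largest fall was that of COPS5, the deneddylase of the COP9 signalosome (TPM of 145 and 145 in unfE and 9.59 and 10.5 in larva, edgeR log2 -3.25 ± 0.29 (SE), adjusted p = 5.7e-07). KLHL20, a BTB adaptor of CUL3 ligases, was called higher (TPM of 5.11 and 6.39 in unfE and 304 and 238 in larva, edgeR log2 6.17 ± 0.23 (SE), adjusted p = 1.7e-10). KLHL12, a related adaptor, was called at low level (TPM of 0.255 and 0.510 in unfE and 3.02 and 2.83 in larva), and a DDI2 match (KY21.Chr1.1281) listed at 0 in both unfE libraries reached only 0.183 and 0.289 TPM in larva, so no fold is given for it.

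The median correlation of log2(TPM + 1) between pairs of genes over the 16 libraries was 0.84 for the deubiquitinases, 0.79 for the ligases, 0.86 for the 19S genes, 0.77 for the 20S genes and 0.13 for the conjugating enzymes. Pairs of genes with a human match in the tables had a median of 0.49. The 16 points of each correlation share their libraries and their scaling, and these values describe the levels without a test.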

How the data were processed

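RNA was poly(A)-selected and made into strand-specific libraries and sequenced in paired 61-base reads. The authors used FastQC and Trim Galore for quality control and trimming, and Salmon against the KY21 transcriptome, with sums per gene. The authors deposited estimated counts, given to 1 decimal and not normalized, and TPM. The deposited DESeq2-normalized values were not used.

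Members were found by symbol in the supplementary tables, held in part (1999 and 1518 entries), and sorted into classes by known role. Members, classes and lists were chosen with earlier results of these data known. Any member could be named. Values in every library are given for the 3 conjugating enzymes, per other class the 4 largest called changes from unfE to larva (10 TPM or more in the higher stage) and the smallest change (mean of 10 TPM or more), the largest called change of each step, the RNF213 matches and the 2 prefix-only genes. Those of other members were chosen after their values were seen. Positions and sequences are not given, and some genes of the wider pathway are not reported here.

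Estimated counts were rounded and fitted with edgeR 4.0.16 in R 4.3.3 (filterByExpr, TMM, quasi-likelihood F-test, robust) over all 16 libraries with a term per stage. P-values were adjusted by Benjamini-Hochberg over 14643 genes, and a gene was called at an adjusted p under 0.05. Standard errors were derived from the F statistic. With 2 libraries a stage, the spread is shared by all stages, and a stage left with 1 library is assumed to vary like the others. The test was also run on counts simulated from the mean levels and dispersions of this fit. Alternatives were DESeq2 1.42.0, limma 3.58.1 on log2(TPM + 1) or log2(TPM + 0.1), RLE factors, library totals, no filter, at least 50 counts in 2 libraries, a replicate block, only the libraries compared, each library left out and, added after seeing the data, TPM rescaled without the Ensembl rows. Levels were summarised in Python 3.11.15.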

Additional observations from a re-analysis of the deposited data

How the results depend on the processing

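From unfE to larva, the members called higher numbered 9 in DESeq2 and with RLE factors, and 1 with library totals, limma on log2(TPM + 1), limma on log2(TPM + 0.1) and rescaled TPM, a setting chosen after seeing the data. The class medians (conjugating, ligase, deubiquitinase, proteasome) became 0.43, -0.92, -0.91 and -0.28 in DESeq2 and with RLE factors, -0.52, -1.87, -1.87 and -1.23 with library totals, -0.55, -1.78, -1.86 and -1.26 in limma on log2(TPM + 1), -0.55, -1.89, -1.89 and -1.28 on log2(TPM + 0.1), and -0.55, -1.79, -1.87 and -1.26 on rescaled TPM. With at least 50 counts in 2 libraries the conjugating median was 0.14. There the median gene was 0.01, against 0.26 with TMM, so it moved the other way. In the other settings listed, the class medians and the median gene moved in the same direction. Members called from fertE to cell16 were 3 in DESeq2, 2 in limma with either pseudocount, with library totals and at 50 counts, and 0 with RLE factors or only the libraries compared. RLE factors gave 13 calls from iniG to latN, and DESeq2 7 from latTII to larva. With only the libraries of both stages, calls were 3 from cell16 to iniG, 9 from iniG to latN, 3 from midTII to latTII and 1 from latTII to larva. In these the cause was not tested.

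Of the 14 members whose sign differed between fits, none was called with TMM, and 6 have their values in every library given. PSMD3 was 0.32 in DESeq2 and RLE, 0.02 at 50 counts and 0.01 with only the libraries compared. RNF213 (KY21.Chr1.657) was 0.30 in DESeq2 and RLE, 0.01 at 50 counts, 0.23 without unfE replicate 1 and 0.12 without larva replicate 2 (-0.35 to 0.23 with each library left out). USP32 was 0.27 in DESeq2 and RLE and 0.07 without unfE replicate 2 (-0.27 to 0.07 with each left out). CUL3 was -0.51 in the 3 limma fits and -0.48 with library totals. UBE2L3 was 0 in limma with either pseudocount and -0.01 on rescaled TPM. UBE2M was -0.55 in the 3 limma fits, -0.52 with library totals, -0.06 without unfE replicate 2 and -0.05 without larva replicate 1.

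With each library left out, calls were 49 to 54 across stages, 1 to 2 higher and 33 to 41 lower in larva, 0 to 0 from unfE to fertE, 0 to 2 from fertE to cell16, 2 to 9 from cell16 to iniG, 12 to 21 from iniG to latN, 15 to 27 from latN to midTII, 3 to 7 from midTII to latTII and 1 to 4 from latTII to larva. The medians were -0.06 to 0.16 (conjugating), -1.32 to -1.23 (ligase), -1.32 to -1.21 (deubiquitinase) and -0.79 to -0.54 (proteasome). Same-numbered libraries deviated together (correlation over 0.1) in 5 of 28 pairs of stages (-0.195 to 0.755 in all). These were strong among unfE, fertE and cell16 (0.701, 0.713 and 0.755) and between iniG and latN (0.587), and weak between latTII and larva (0.188), so 4 of the 7 steps join stages whose numbers go together. As the labels do not say what a number marks and it did not hold across all stages, the numbers were not taken as pairs, and a block common to all stages does not model links within some of them. The replicate block gave 0, 1, 10, 21, 27, 6 and 5 calls in the 7 steps and 42 from unfE to larva (2 higher, 40 lower), against 0, 1, 8, 21, 26, 7, 4 and 41 without it. With 2 libraries a stage, a change that missed the threshold is not shown to be absent.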
